A study of Mus musculus with 20 samples.

Results

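The comparison described here sets 4 mice with colitis that received a probiotic mixture against 4 mice with colitis that received saline. These 8 arrays were chosen by their titles and are 8 of the 20 arrays of the series. All mice were female C57BL/6JOlaHsd animals of about 11 weeks, and RNA came from the middle part of the colon, 1 array per mouse. Colitis was induced in every mouse of both groups with 3% dextran sulphate sodium (DSS) in the drinking water for 5 days. The probiotic group received the strains L930BB and IM386 in saline by intragastric tube before DSS and then together with it, and the control group, labelled None on its arrays, is given as saline in the design text. The other 12 arrays were 4 healthy mice on saline, 4 healthy mice on the probiotic mixture and 4 mice with DSS colitis on cyclosporine A (CsA). CsA, suspended in methocel and not in saline, was given by mouth at 25 mg/kg each day between day 1 and day 15, and no healthy group received it. The day of tissue collection is not given in the sources used here, nor is the cage of each mouse, of which 5 shared a cage, so a cage shared by a group was not analysed here. Precision is set by having 4 arrays per group.

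DSS is a sulphated polymer that injures the colonic epithelium and lets bacteria reach the wall of the colon, where resident and recruited macrophages take them up. Macrophages sense microbes through C-type lectins and Fc receptors, tag debris with complement C1q, digest it in lysosomes and present peptides on MHC class II to T cells. Beneath the epithelium, fibroblasts supply matrix and growth factors, while colonocytes carry ion transport, fatty acid and drug metabolism, and a coat of sialylated O-glycans.

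Values are log2 expression after robust multiarray averaging (RMA), and 16739 genes with a probe set above a log2 value of 5.30 (the 25th percentile) on at least 4 arrays were tested. Muc2, the secreted mucin of goblet cells, lay between 13.54 and 13.81 on the 8 arrays, and posterior Hox genes had list means of 7.48 to 8.04, so markers of colon were present on all of them. Array medians over the 20 arrays lay between 6.22 and 6.29, no arrays were identical, and pairs correlated at 0.926 to 0.993. Of the variance among the 8 arrays, the first principal component held 47.7%, with saline mouse 6 at one end (36.6) and probiotic mice 3, 5 and 7 at the other (-17.7 to -20.8). Probiotic mouse 8 (10.6) lay among the saline mice on that component, next to saline mouse 10 (13.6). Below, values of single arrays are given in the order of mice 5, 6, 7 and 10 for saline and of mice 3, 5, 7 and 8 for the probiotic. Differences are log2 values of probiotic minus saline ± standard error of the fit, with n = 4 mice per group. That error pools the spread within all 5 groups, so it is not an error of the 8 compared arrays alone. The median SD of a gene was similar in all groups (0.11 to 0.13). For the mean of the neutrophil markers the SD was 1.05 in each compared group, against 0.07, 0.26 and 0.09 in healthy saline, healthy probiotic and CsA mice. Lists with called rises also spread more in the compared groups, saline first. The SD was 0.60 and 0.55 for C-type lectins, against 0.04, 0.09 and 0.06 in the same order of other groups. For macrophage markers it was 0.37 and 0.22 against 0.06, 0.11 and 0.17. Cell cycle genes spread more in healthy mice (0.17 and 0.10 against 0.28, 0.26 and 0.10). Where the compared mice spread more than the others, the pooled error is too small, and adjusted p of such genes are too low.

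At a Benjamini-Hochberg adjusted p under 0.05 in limma, fitted over all 20 arrays, 356 genes rose (2.13% of those tested) and 112 fell (0.669%). The genes that rose in probiotic colitis included 9 of 19 macrophage markers, 9 of 24 complement genes and 15 of 26 fibroblast genes, the last a list written after the values were seen, and those that fell included 4 of 21 colonocyte markers. None of 17 neutrophil markers, 14 B cell genes or 17 goblet cell markers passed. The other lists, too, were chosen with earlier results of these data known, so list counts are a description and no independent support. Of all called genes, 32 rose and 6 fell by at least 2-fold, and the median change was 0.58 among the rises and -0.39 among the falls, against -0.02 over all genes. The 4 arrays of one group did not overlap those of the other for 222 of the 356 rises and 81 of the 112 falls. Over all genes tested, 3.63% were higher and 4.28% lower without overlap. The calls rest on these same arrays, so their separation is no independent support. The largest changes named below were also chosen for not overlapping. A second quantile normalization of the deposited values gave 320 rises and 184 falls.

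How many genes passed depended on which mice were in the fit, as the plot of calls by arrays shows. A fit of the 8 arrays alone called 0 genes with limma, where 2533 genes had an unadjusted p under 0.05 and the lowest adjusted p was 0.0994. That fit takes its spread from these 8 mice only, with 6 residual degrees of freedom against 15 in the fit of 20 arrays. The calls given above thus rest on the spread pooled with the other groups. Without probiotic mouse 5 there were 60 rises and 11 falls, without saline mouse 6 there were 72 and 11, and without probiotic mouse 7 there were 91 and 20. Without probiotic mouse 3 the counts were 136 and 29, and without saline mouse 10 they were 164 and 39. They grew to 829 rises and 394 falls without probiotic mouse 8, to 808 and 348 without saline mouse 5, and were 468 and 94 without saline mouse 7. All 356 rises and all 112 falls kept their direction in each of these 8 fits, and 55 of the rises and 8 of the falls passed in every one. Kept direction was largely fixed in advance, because the genes were called on these same arrays. Each of these fits also kept the arrays of the other groups for the spread, so passing in them is no independent support. Leaving out saline mouse 6 and probiotic mouse 8 together, an alternative chosen after seeing the data, gave 427 rises and 129 falls, among them 239 and 57 of those above.

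**Figure D1:**
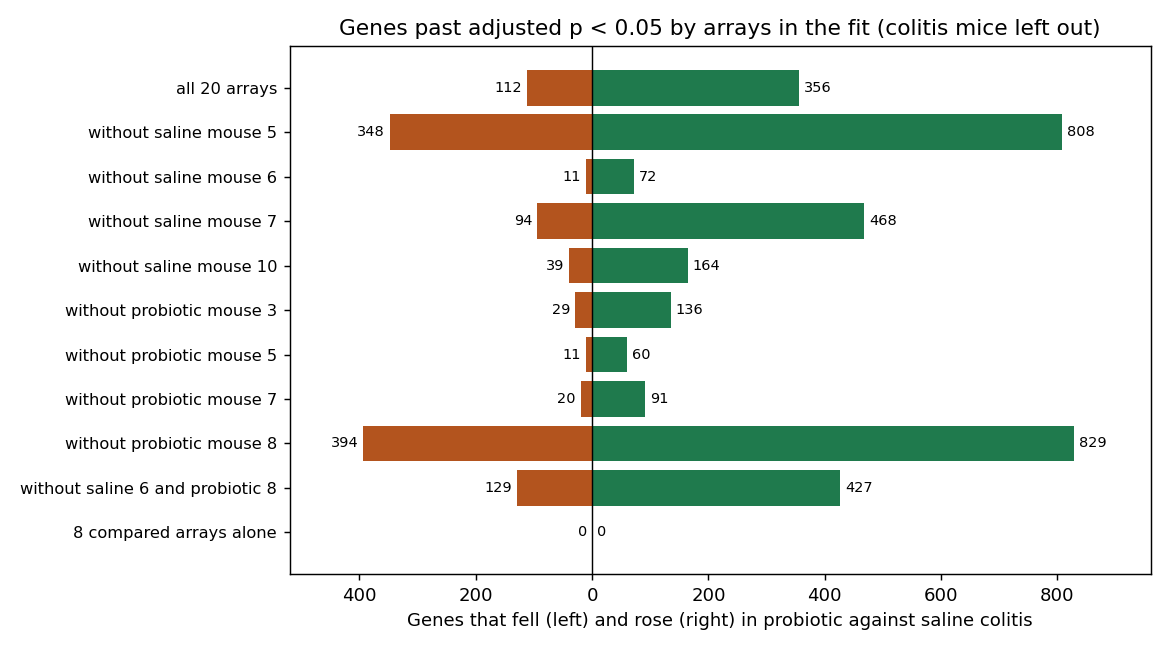
Number of genes past an adjusted p of 0.05 that fell (bars to the left) and rose (bars to the right) in probiotic against saline colitis, for the fit of all 20 arrays, fits without 1 colitis mouse, without 2, and of the 8 arrays alone. Rises range from 60 without probiotic mouse 5 to 829 without probiotic mouse 8, and the 8 arrays alone give 0.

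Among called genes without overlap, the largest rises were those of 2 C-type lectin receptors of myeloid cells. Predicted genes, noncoding RNA and receptor segments were left out of this ranking. Clec7a encodes dectin-1, the receptor for fungal beta-glucan, and Clec12a an inhibitory receptor of monocytes, macrophages and granulocytes. Clec7a had values of 7.78, 6.78, 8.44 and 7.99 in saline colitis and 9.63, 9.72, 9.71 and 8.61 in probiotic colitis. Every probiotic mouse was above every saline mouse, with mouse 8 closest to them. The difference was 1.67 ± 0.29 (3.17-fold, adjusted p = 0.00675 in limma), and it passed without any 1 of the 8 mice (adjusted p up to 0.0344). Clec12a had values of 6.62, 5.76, 6.79 and 6.35 against 8.61, 8.24, 7.93 and 7.33, again without overlap and with mouse 8 the lowest of its group. It differed by 1.65 ± 0.22 (3.14-fold, adjusted p = 0.00207), and passed in all 8 fits without 1 mouse (up to 0.0117). In healthy mice the means of Clec7a were 6.33 ± 0.20 (SD, n = 4) on saline and 6.68 ± 0.29 on the probiotic, and in CsA colitis the mean was 7.27 ± 0.32. For Clec12a they were 5.30 ± 0.07, 5.73 ± 0.15 and 6.18 ± 0.25 in the same order.

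Promoters are shown for 3 pairs of changed genes that lie on the same chromosome, chosen from the genes named here and not by a search of all changed genes: the lectin pair Clec7a and Clec12a, the complement pair C1qb and C1qc, and the cytochrome P450 pair Cyp2c55 and Cyp2c65. Their start sites lie 123 kb apart on chromosome 6, 6.71 kb apart on chromosome 4 and 54 kb apart on chromosome 19. Both genes of each pair moved the same way. The promoters are RefSeq sequences of GRCm38.p6, 250 bases before to 50 bases after the start site, read 5′ to 3′ on the strand of the gene. Capitals mark the PU.1 core GAGGAAG, the HNF4A core CAAAGTC and the TATA box TATAAA on either strand. PU.1 is the lineage factor of myeloid cells and HNF4A an activator of enterocyte genes.
Clec7a, chr6:129472730-129473029, minus strand: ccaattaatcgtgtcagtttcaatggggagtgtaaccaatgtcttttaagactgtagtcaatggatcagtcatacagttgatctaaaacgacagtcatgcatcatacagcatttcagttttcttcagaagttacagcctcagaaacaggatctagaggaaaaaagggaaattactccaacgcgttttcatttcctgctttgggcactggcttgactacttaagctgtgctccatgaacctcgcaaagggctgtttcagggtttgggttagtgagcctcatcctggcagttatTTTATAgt
Clec12a, chr6:129349994-129350293, plus strand: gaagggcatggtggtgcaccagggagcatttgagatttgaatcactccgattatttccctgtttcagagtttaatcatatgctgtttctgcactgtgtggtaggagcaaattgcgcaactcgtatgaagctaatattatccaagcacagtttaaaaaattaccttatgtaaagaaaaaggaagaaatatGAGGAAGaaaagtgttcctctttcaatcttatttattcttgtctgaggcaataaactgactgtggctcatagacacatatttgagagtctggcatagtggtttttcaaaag
C1qb, chr4:136886151-136886450, minus strand: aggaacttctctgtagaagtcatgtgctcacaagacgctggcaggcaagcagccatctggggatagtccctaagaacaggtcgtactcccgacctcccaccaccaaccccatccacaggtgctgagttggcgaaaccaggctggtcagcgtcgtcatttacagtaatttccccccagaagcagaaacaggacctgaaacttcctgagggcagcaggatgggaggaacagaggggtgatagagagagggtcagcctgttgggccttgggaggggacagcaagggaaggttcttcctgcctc
C1qc, chr4:136892865-136893164, minus strand: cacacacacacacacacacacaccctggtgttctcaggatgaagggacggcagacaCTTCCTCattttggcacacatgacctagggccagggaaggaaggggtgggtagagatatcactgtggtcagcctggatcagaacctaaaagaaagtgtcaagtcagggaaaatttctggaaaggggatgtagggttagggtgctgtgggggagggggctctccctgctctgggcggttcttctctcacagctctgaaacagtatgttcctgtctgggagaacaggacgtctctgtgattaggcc
Cyp2c55, chr19:39006769-39007068, plus strand: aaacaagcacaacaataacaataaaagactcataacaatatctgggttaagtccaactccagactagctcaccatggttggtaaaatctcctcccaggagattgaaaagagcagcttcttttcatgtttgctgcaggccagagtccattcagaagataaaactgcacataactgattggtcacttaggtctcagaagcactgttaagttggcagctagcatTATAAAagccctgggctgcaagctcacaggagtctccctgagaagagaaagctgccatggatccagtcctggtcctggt
Cyp2c65, chr19:39060756-39061055, plus strand: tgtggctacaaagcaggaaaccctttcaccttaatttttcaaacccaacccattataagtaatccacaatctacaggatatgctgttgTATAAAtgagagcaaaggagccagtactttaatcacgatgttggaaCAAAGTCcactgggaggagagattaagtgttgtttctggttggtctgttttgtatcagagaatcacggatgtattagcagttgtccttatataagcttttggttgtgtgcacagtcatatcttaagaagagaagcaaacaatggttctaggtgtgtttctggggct

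The PU.1 core was found in the Clec12a promoter, where its first base lies at -61, and on the opposite strand in that of C1qc, at -194. The Clec7a and C1qb windows did not hold these letters. The Cyp2c55 promoter held a TATA box at -29, and that of Cyp2c65 held the HNF4A core at -116 and a TATA box at -162. The Clec7a window held the TATA letters at 43 after the start, on the opposite strand. Of the 356 genes that rose, 274 had a promoter in the table, and 20.4% of these held the PU.1 core, against 13.5% of all 27025 promoters and 13.3% of those of genes tested. The share was 17% among the genes that fell. Of the 112 that fell, 88 had one, and 11.4% of these held the HNF4A core, against 2.92% of those of genes that rose, 4.05% of those of genes tested and 4.36% of all. The TATA box was in 10.2% of promoters of genes that rose and 17% of those that fell, against 8.91% of those of genes tested and 14.2% of all. These are matches of letters in one window, and no test was made of the shares.

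The 3 C1q genes and the complement receptor gene C3ar1 rose in probiotic colitis. C1qa, C1qb and C1qc encode the 3 chains of C1q, which macrophages of the gut wall secrete. C1qb had values of 9.34, 8.78, 10.10 and 9.54 against 10.77, 11.03, 10.90 and 10.24, so that saline mouse 7 came closest to probiotic mouse 8 without reaching it. The difference was 1.29 ± 0.22 (2.45-fold, adjusted p = 0.007 in limma). C1qa differed by 0.84 ± 0.17 (adjusted p = 0.0155) and C1qc by 0.78 ± 0.18 (adjusted p = 0.0324), each with saline mouse 7 above probiotic mouse 8. C3ar1, the receptor for the fragment C3a, had values of 7.16, 6.81, 7.78 and 7.48 against 8.23, 8.49, 8.35 and 7.99, a difference of 0.96 ± 0.16. C1qb and C3ar1 passed without any 1 mouse, whereas C1qa failed without saline mouse 6 or probiotic mouse 5 or 7 (adjusted p up to 0.0789). C1qc failed without saline mouse 6 or 10 or probiotic mouse 3, 5 or 7 (adjusted p up to 0.137). Serping1, the C1 inhibitor, rose by 0.95 ± 0.20, C4b by 0.84 ± 0.18 and properdin, Cfp, by 0.61 ± 0.16. Serping1 failed without probiotic mouse 3, 5 or 7 (up to 0.0863), and C4b and Cfp failed without saline mouse 6 or 10 or probiotic mouse 3, 5 or 7 (up to 0.101 and 0.199). Of 24 complement genes tested 9 rose and 0 fell, with a median of 0.49, and 2 rises remained without probiotic mouse 5 or 7 and 13 without probiotic mouse 8. Over the 20 arrays, the genes whose values followed C1qb most closely were C1qc (Pearson r = 0.971), Dse, a dermatan sulphate enzyme (0.958), Adgre1 (0.957), C1qa (0.953) and the receptor gene Tlr8 (0.952). These arrays share their groups, so the values are a description.

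Some markers of macrophages rose. In whole tissue, more cells of a type and more RNA per cell cannot be told apart, and fewer cells and less RNA cannot either. Adgre1, an adhesion receptor that marks mouse macrophages, had values of 7.45, 7.13, 7.99 and 7.44 against 8.61, 8.64, 8.48 and 8.15. All 4 probiotic mice were above all saline mice, by 0.97 ± 0.16 on average (1.96-fold, adjusted p = 0.00495 in limma). Aif1, the actin-bundling protein IBA1, had values of 6.91, 6.50, 6.88 and 6.79 against 7.69, 7.71, 7.67 and 7.26, without overlap, and differed by 0.81 ± 0.12 (adjusted p = 0.00409). Ms4a7 rose by 0.71 ± 0.12 and Mpeg1, the pore-forming perforin-2 of phagocytes, by 1.01 ± 0.19. These 4 passed without any 1 mouse. Csf1r, the receptor for the macrophage growth factor CSF1, rose by 1.04 ± 0.20 but failed without probiotic mouse 5 (adjusted p = 0.0578). Cd68 (0.97 ± 0.24), Lyz2 (0.88 ± 0.22) and Fcgr1 (1.13 ± 0.27) rose, and each failed without saline mouse 6 or 10 or probiotic mouse 3, 5 or 7 (adjusted p up to 0.17). Cx3cr1, the fractalkine receptor of resident macrophages, rose by 0.35 ± 0.08, a call lost without saline mouse 6 or probiotic mouse 3, 5 or 7 (up to 0.113). In all, 9 of 19 macrophage markers rose and 0 fell, with a median of 0.71 against -0.02 over all genes. The count was 4 without probiotic mouse 5 and 13 without saline mouse 5 or 7.

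The mean of the macrophage markers was 8.19, 7.52, 8.36 and 7.86 in saline colitis and 8.58, 8.77, 8.77 and 8.30 in probiotic colitis. Saline mouse 6 was the lowest, and probiotic mouse 8 fell below saline mouse 7. Healthy mice had group means of 7.62 on saline and 7.83 on the probiotic, and CsA colitis had 7.99. The mean of 14 B cell genes was 9.79, 8.20, 8.76 and 8.69 in saline colitis, where mouse 5 was the highest of all 8 arrays, and 9.43, 9.56, 9.22 and 9.08 in probiotic colitis. The part of the 2 arrays, or of lymphoid tissue in a sample, in the difference of the macrophage genes was not tested. Without saline mouse 6 the median of the macrophage markers was 0.61 with 5 rises, and without both arrays it was 0.60 with 10 rises.

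**Figure D2:**
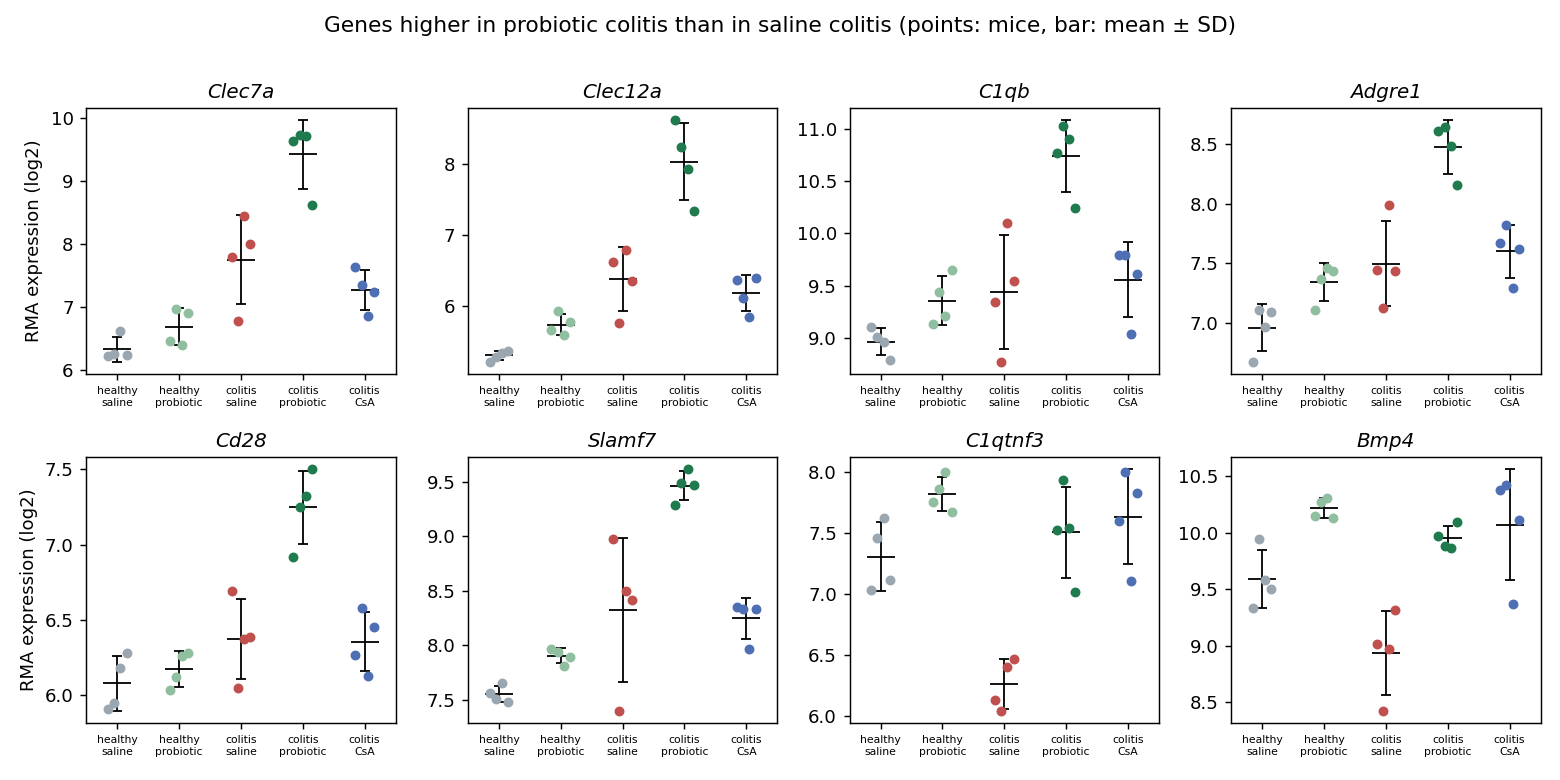
RMA expression (log2) of 8 genes that rose, by group, with a point for each mouse and a bar for the mean ± SD of 4 mice. Clec7a, Clec12a, C1qb, Adgre1, Cd28 and Slamf7 are highest in probiotic colitis, while C1qtnf3 and Bmp4 are lowest in saline colitis and about as high in probiotic colitis as in the CsA group.

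Some receptors of the myeloid surface rose. Slamf7, a homophilic receptor of phagocytes and plasma cells, had values of 8.97, 7.40, 8.50 and 8.41 against 9.29, 9.49, 9.61 and 9.47. The probiotic mice were tightly grouped, and saline mouse 6 was more than 1 log2 unit below the other saline mice. Slamf7 differed by 1.14 ± 0.20 (2.21-fold, adjusted p = 0.00768), Slamf8 by 1.20 ± 0.20 (adjusted p = 0.00526) and Lair1, an inhibitory collagen receptor, by 0.87 ± 0.15 (adjusted p = 0.00739), all in limma. All 3 passed without any 1 mouse (adjusted p up to 0.0344). Of 31 Fc and paired receptors 11 rose and 0 fell, with a median of 0.60. Among them Fcgr4 (1.41 ± 0.36), Fcer1g (1.10 ± 0.27) and Sirpa, the receptor for the CD47 signal (0.81 ± 0.20), failed without saline mouse 6 or 10 or probiotic mouse 3, 5 or 7 (adjusted p up to 0.193). The count was 3 without probiotic mouse 5, 4 without saline mouse 6, and 18 without saline mouse 7 or probiotic mouse 8. Of 15 C-type lectins 5 rose and 0 fell, with a median of 0.75, and Clec4a1 (1.29 ± 0.29), Clec4a3 (1.13 ± 0.30) and Klra2 (1.14 ± 0.30) were the 3 beside Clec7a and Clec12a. Those 3 failed without saline mouse 6 or probiotic mouse 3, 5 or 7 (up to 0.198), which left 2 rises without saline mouse 6 or probiotic mouse 5 or 7.

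Some genes of digestion and clearance in phagocytes rose. Dnase1l3, a secreted nuclease that degrades DNA of dying cells, had values of 7.90, 6.64, 7.42 and 7.72 against 8.72, 8.61, 8.32 and 8.35, without overlap. It differed by 1.08 ± 0.18 (2.12-fold, adjusted p = 0.00515 in limma). Grn, the lysosomal protein progranulin, rose by 0.46 ± 0.08, and both genes passed without any 1 mouse. The cathepsins Ctsh (0.52 ± 0.11), Ctsc (0.54 ± 0.12) and Ctsb (0.30 ± 0.07) and Psap, the precursor of saposins (0.34 ± 0.08), rose too. Those 4 failed without saline mouse 6 or probiotic mouse 3, 5 or 7 (adjusted p up to 0.124). In all 8 of 26 lysosome genes rose and 0 fell, with a median of 0.22, and 2 rises were left without saline mouse 6 or probiotic mouse 3, 5 or 7. Of 20 genes of lipid handling and clearance 4 rose and 0 fell, with a median of 0.39. These were Pltp, a phospholipid transfer protein (0.89 ± 0.18), Apoe (0.53 ± 0.12), Axl, a receptor for apoptotic cells (0.56 ± 0.12), and the scavenger receptor Stab1 (0.41 ± 0.11). None was left without probiotic mouse 5 or 7 (adjusted p up to 0.176 for the 4 genes). Of 6 phagocyte oxidase genes 1 rose, Cybb (1.13 ± 0.27), which failed without saline mouse 6 or 10 or probiotic mouse 3, 5 or 7 (up to 0.129).

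Of monocyte and neutrophil markers 1 was called. Of 9 monocyte markers only Ccr2, the receptor that brings monocytes into tissue, rose, by 1.20 ± 0.26 (adjusted p = 0.0213 in limma). Its values were 7.68, 6.90, 8.10 and 7.68 against 9.32, 8.95, 9.12 and 7.79, so that probiotic mouse 8 lay within the saline group. The call was lost without saline mouse 6 or probiotic mouse 3, 5 or 7 (up to 0.0952). Of 17 neutrophil markers 0 passed, although 16 had a higher mean and the median was 0.62. The mean of these markers was 7.11, 6.37, 8.84 and 7.12 in saline colitis and 8.57, 8.19, 8.70 and 6.43 in probiotic colitis. Saline mouse 7 was thus the highest and probiotic mouse 8 lay at the level of saline mouse 6. Without probiotic mouse 8, 7 neutrophil markers passed as higher. S100a8, a calprotectin subunit of neutrophils, had values of 6.86, 5.54, 10.01 and 7.34 against 9.70, 8.75, 9.53 and 5.66 (0.97 ± 0.82, adjusted p = 0.585).

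Acute cytokines did not pass. Of 16 such genes 0 were called, with a median of 0.22 that was 0.02 without saline mouse 6. Il1b, the inflammasome cytokine, had values of 9.40, 7.80, 12.59 and 10.43 against 11.30, 11.88, 12.48 and 9.46. The 2 groups overlapped over most of their range. Tnf differed by 0.51 ± 0.24 (adjusted p = 0.27), Ptgs2, cyclooxygenase 2, by 0.96 ± 0.57 (adjusted p = 0.397), Nos2 by 0.46 ± 0.43 (adjusted p = 0.633) and the neutrophil gelatinase lipocalin Lcn2 by 0.96 ± 0.59 (adjusted p = 0.416), all in limma. Il10, Il6, Il17a, Il22 and Reg3g were too dim to be tested. Of 30 genes of Toll-like and NOD-like receptor signalling 1 rose, Tlr12 (0.56 ± 0.13), and 1 fell, Il18 (-0.46 ± 0.12), an epithelial cytokine. Both calls were lost without saline mouse 6 or 10 or probiotic mouse 3, 5 or 7 (adjusted p up to 0.195). Tlr2 (0.40 ± 0.15), Tlr4 (0.08 ± 0.11), Tlr9 (0.65 ± 0.23) and Nod2 (0.18 ± 0.12) had adjusted p of 0.165, 0.761, 0.143 and 0.454. Of 18 type I interferon targets 0 passed, with a median of 0.25.

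A few genes of MHC class II rose. H2-Ab1 had values of 11.89, 10.92, 11.82 and 11.77 against 12.61, 12.72, 12.63 and 11.95, which did not overlap although probiotic mouse 8 came close to the highest saline mouse. H2-Ab1 rose by 0.88 ± 0.19 (adjusted p = 0.0215 in limma), H2-Aa by 0.87 ± 0.19 (adjusted p = 0.0225), H2-Eb1 by 0.87 ± 0.17 (adjusted p = 0.0123) and the immunoproteasome subunit Psmb8 by 0.67 ± 0.17 (adjusted p = 0.0391). These 4 of 18 class II and interferon gamma genes rose and 0 fell, with a median of 0.65. All 4 calls were lost without saline mouse 6 or probiotic mouse 5 (adjusted p up to 0.155), and 15 genes passed without probiotic mouse 8. Mr1, which presents bacterial vitamin metabolites to innate-like T cells, had values of 7.90, 7.02, 7.73 and 7.46 against 8.38, 8.48, 8.56 and 8.52, without overlap. It rose by 0.95 ± 0.19 (adjusted p = 0.0133), a call lost without saline mouse 6 or probiotic mouse 5 (up to 0.0613). Ifng itself differed by 0.35 ± 0.16 (adjusted p = 0.259).

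A few T cell genes rose. Cd28, the costimulatory receptor of T cells, had values of 6.69, 6.05, 6.38 and 6.39 against 6.92, 7.25, 7.33 and 7.50. The groups did not overlap, and the difference of 0.87 ± 0.14 (1.83-fold, adjusted p = 0.00465 in limma) passed without any 1 mouse. Cd4, which T helper cells and some macrophages carry, had values of 8.33, 7.02, 7.79 and 7.51 against 8.52, 9.07, 8.62 and 8.74 (1.08 ± 0.23, adjusted p = 0.0215), again without overlap. It failed without saline mouse 6 or 10 or probiotic mouse 5 or 7 (adjusted p up to 0.0973). Cd8a differed by 0.18 ± 0.24 (adjusted p = 0.752) and Foxp3, the factor of regulatory T cells, by 0.27 ± 0.14 (adjusted p = 0.302). Of 16 T cell genes 2 rose, Cd4 and Cd28, and 0 fell, with a median of 0.29. The mean of the 16 was 7.59, 6.35, 6.60 and 6.63 in saline colitis and 7.22, 7.48, 7.26 and 7.00 in probiotic colitis. Saline mouse 5 was thus the highest of the 8, as it was for B cell genes, and without it 12 of the 16 passed as higher.

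Genes of cytotoxic cells and of lymphocyte homing were also among the rises. Ncr1, the NKp46 receptor of natural killer and innate lymphoid cells, had values of 5.72, 5.37, 5.31 and 5.63 against 6.53, 6.08, 6.26 and 6.11 (0.74 ± 0.12, adjusted p = 0.00465 in limma). Cxcr6, a homing receptor of tissue lymphocytes, had values of 5.76, 5.53, 5.69 and 6.05 against 6.53, 6.68, 6.52 and 6.27 (0.74 ± 0.11, adjusted p = 0.00268). The groups did not overlap for either gene, and both passed without any 1 mouse. Cxcl16, the gene of the ligand of CXCR6, rose by 0.75 ± 0.14, failing without saline mouse 6 or probiotic mouse 5 (up to 0.0568). Gzma, granzyme A, rose by 1.48 ± 0.29 from a saline mean of 5.15, under the filter level of 5.30, and failed without saline mouse 6 or probiotic mouse 5 or 7 (up to 0.0614). In all 5 of 11 cytotoxic genes rose and 0 fell, with a median of 0.72, the others being Klrk1 (0.76 ± 0.16), Nkg7 (0.46 ± 0.12) and Fasl (0.36 ± 0.10). The count was 1 without saline mouse 6 or probiotic mouse 5 or 7, and 9 without probiotic mouse 8.

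Of 19 genes of costimulation and the antigen presenting surface, Cd28 included, 6 rose and 0 fell, with a median of 0.67. Havcr2, the inhibitory receptor TIM-3, had values of 6.29, 5.91, 6.96 and 6.87 against 7.79, 7.53, 7.32 and 7.36 (0.99 ± 0.21, adjusted p = 0.0185 in limma). The ligand Cd274, PD-L1, rose by 1.20 ± 0.31, Tigit by 0.79 ± 0.19 and Ctla4 by 0.68 ± 0.18. Each of these 4 failed without saline mouse 6 or probiotic mouse 3 or 5 (adjusted p up to 0.175), and the count was 1 without either saline mouse 6 or probiotic mouse 3 or 5. The interleukin 10 receptor chain Il10ra rose by 0.73 ± 0.18, failing without saline mouse 6 or 10 or probiotic mouse 3, 5 or 7 (up to 0.135).

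Plasma cell genes rose in part, and B cell genes did not pass. Prdm1, the BLIMP-1 factor of plasma cells and effector T cells, had values of 7.59, 6.91, 7.69 and 7.44 against 8.35, 8.12, 8.57 and 8.17. All 4 probiotic mice were higher, by 0.90 ± 0.13 (1.86-fold, adjusted p = 0.00281 in limma), and the call held without any 1 mouse (up to 0.0134). Irf4 rose by 0.98 ± 0.26 and the secretory gene Derl3 by 0.79 ± 0.18, and both failed without saline mouse 6 or 10 or probiotic mouse 3 or 7 (up to 0.18). That made 3 of 10 plasma cell genes, with a median of 0.70 and 0 falls, 1 being left without saline mouse 6 and 7 passing without saline mouse 5. Of 14 B cell genes (median 0.48) and 9 immunoglobulin segments (median 0.80) 0 passed. The mean of the segments was 10.26, 7.44, 9.37 and 9.29 in saline colitis and 9.72, 9.56, 10.30 and 10.27 in probiotic colitis. Apart from saline mouse 6 the 2 groups overlapped.

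**Figure D3:**
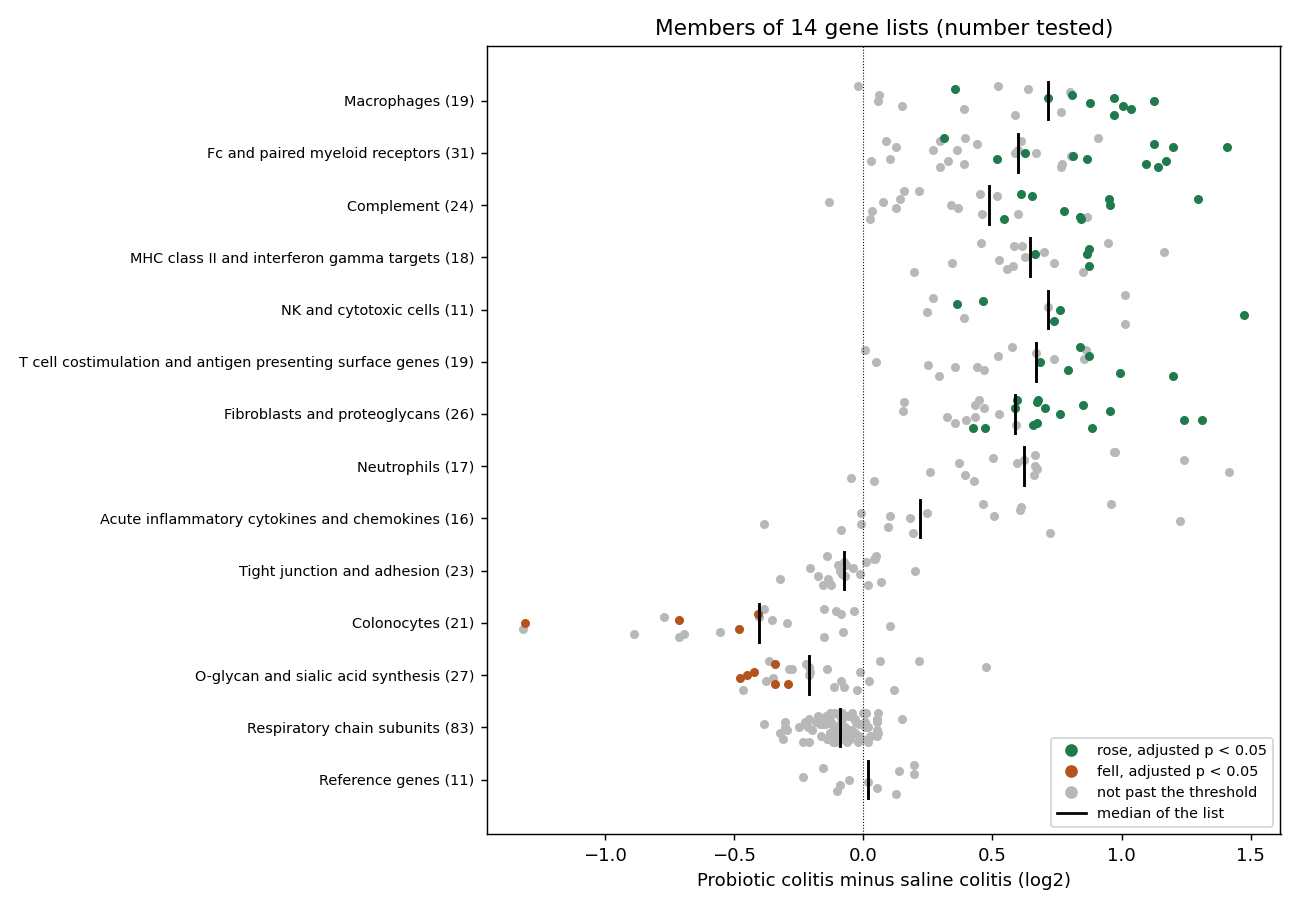
Difference of probiotic minus saline colitis (log2) for each tested gene of 14 lists, with the number tested in brackets. Green points rose, orange points fell and grey points did not pass an adjusted p of 0.05, and the black line is the median of the list, which lies at 0.71 for macrophages and at -0.40 for colonocytes.

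Some genes of homing and adhesion rose. Of 16 leukocyte integrins and adhesion genes 5 rose and 0 fell, with a median of 0.63. Itgb7, whose product pairs with alpha 4 to bind the gut vessel addressin, had values of 7.31, 6.67, 7.12 and 6.87 against 7.77, 7.72, 7.70 and 7.39, without overlap (0.65 ± 0.13, adjusted p = 0.0123 in limma). It failed without saline mouse 6 or probiotic mouse 5 (up to 0.057), as did the other 4, which left a count of 0 there. Ccr9, the receptor for the small bowel chemokine CCL25, rose by 0.36 ± 0.08, and the chemokine gene Ccl8 by 1.39 ± 0.31. Both failed without saline mouse 6 or probiotic mouse 3, 5 or 7 (up to 0.108). Of 15 endothelial genes all had a higher mean and 3 rose, Kdr (0.45 ± 0.11), Cldn5 (0.46 ± 0.11) and Tek (0.53 ± 0.14), with a median of 0.45. All 3 failed without saline mouse 6 or 10 or probiotic mouse 3, 5 or 7 (up to 0.191).

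C1qtnf3 and Bmp4, genes of connective tissue, had their lowest mean in saline colitis. C1qtnf3, which encodes the secreted protein CTRP3, had values of 6.13, 6.04, 6.40 and 6.47 against 7.52, 7.93, 7.54 and 7.02, without overlap. It rose by 1.24 ± 0.19 (2.37-fold, adjusted p = 0.00409 in limma). Its means were 7.31 ± 0.28 (SD, n = 4) in healthy mice on saline, 7.82 ± 0.14 in healthy mice on the probiotic and 7.63 ± 0.39 in CsA colitis, so that the saline colitis mean was the lowest of the 5 groups. Bmp4, a growth factor that fibroblasts supply to the crypt top, had values of 9.01, 8.43, 8.97 and 9.32 against 9.97, 9.88, 9.86 and 10.09. It rose by 1.02 ± 0.19 (2.03-fold, adjusted p = 0.0116), from a saline colitis mean of 8.93 ± 0.37 to 9.95 ± 0.11, with healthy means of 9.59 ± 0.26 and 10.21 ± 0.09. These healthy and CsA means are set beside the comparison as levels and were not tested against saline colitis here.

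Several matrix genes of fibroblasts rose as well. Dpt, which encodes dermatopontin, had values of 10.12, 9.54, 10.26 and 9.77 against 10.44, 11.10, 10.74 and 10.82 (0.85 ± 0.15, adjusted p = 0.00768 in limma). Abi3bp, a matrix protein, had values of 9.43, 8.61, 9.05 and 9.23 against 9.82, 10.07, 9.82 and 10.15 (0.89 ± 0.14, adjusted p = 0.00495), and Islr, a mesenchymal surface gene, had 7.79, 7.54, 7.73 and 7.66 against 8.43, 8.52, 8.33 and 8.14 (0.67 ± 0.09, adjusted p = 0.00207). The groups did not overlap for any of the 3. C1qtnf3, Dpt, Abi3bp and Islr passed without any 1 mouse, and Bmp4 failed without saline mouse 6 (adjusted p = 0.0519). Decorin, Dcn (0.76 ± 0.18), and the Wnt inhibitor Sfrp1 (1.31 ± 0.29) failed without saline mouse 6 or 10 or probiotic mouse 3, 5 or 7 (up to 0.12). Cxcl12, the stromal chemokine, rose by 0.84 ± 0.18 and failed without probiotic mouse 3, 5 or 7 (up to 0.0805). Of 26 fibroblast and proteoglycan genes, a list written after the values were seen, all had a higher mean and 15 rose, with a median of 0.59. There were 4 rises without saline mouse 6 or 10 or probiotic mouse 5 or 7, and 18 without saline mouse 7.

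The mean of the fibroblast genes was 8.66, 8.03, 8.70 and 8.36 in saline colitis and 8.94, 9.22, 9.12 and 8.90 in probiotic colitis, without overlap. That list was written after the values were seen, so the separation of its mean was largely fixed by the choice of members. The group means of healthy mice were 8.58 on saline and 8.90 on the probiotic, and that of CsA colitis was 8.83. In a second list of that kind, of BMP ligands, antagonists and mesenchymal factors, 6 of 19 rose and 0 fell, with a median of 0.18, and 0 passed without saline mouse 6. Osr1 (0.72 ± 0.15), Tcf21 (0.76 ± 0.15) and Chrdl1, a BMP antagonist (0.69 ± 0.16), were among them. Osr1 failed without saline mouse 6 or probiotic mouse 5 or 7 (adjusted p up to 0.08), Tcf21 without saline mouse 6 or probiotic mouse 5 (up to 0.0704), and Chrdl1 without saline mouse 6 or 10 or probiotic mouse 3, 5 or 7 (up to 0.129). Genes of lymphatic vessels, another list of that kind, rose for 3 of 9. These were Flt4, the VEGF-C receptor (0.64 ± 0.15), the lineage factor Prox1 (0.53 ± 0.14) and Reln (0.63 ± 0.15), with a list median of 0.53 and 0 rises without saline mouse 6 or 10 or probiotic mouse 5 or 7 (up to 0.161). Of 20 genes of matrix and wound repair only Col1a2 (0.44 ± 0.12) and Mmp14 (0.42 ± 0.11) rose, both failing without saline mouse 6 or 10 or probiotic mouse 3, 5 or 7 (up to 0.198). Smooth muscle, with 0 of 15 called and a median of 0.08, and enteric neurons and glia, with 0 of 13 and a median of -0.04, had no calls.

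Among the other large rises, Ces2f, a carboxylesterase, had values of 5.89, 6.05, 6.25 and 5.97 against 7.21, 7.28, 6.74 and 6.65 (0.93 ± 0.16, adjusted p = 0.007 in limma). Man1c1, a Golgi mannosidase, had 7.38, 6.51, 7.69 and 7.33 against 7.98, 8.19, 8.38 and 8.11 (0.94 ± 0.18, adjusted p = 0.0116), and both genes passed without any 1 mouse. P2rx7, the ATP-gated channel of immune cells, differed by 0.61 ± 0.08 (adjusted p = 0.00207) and also passed in all 8 fits. Trpv6, an epithelial calcium channel, had 6.75, 7.42, 7.75 and 7.90 against 8.02, 8.35, 8.25 and 8.93 (0.93 ± 0.24, adjusted p = 0.0413). The groups did not overlap for any of these 4, but Trpv6 failed without saline mouse 5 or 6 or probiotic mouse 3, 5, 7 or 8 (up to 0.132). It was the 1 of 28 ion, nutrient and bile acid transport genes that rose, while 0 fell and the median was -0.18.

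**Figure D4:**
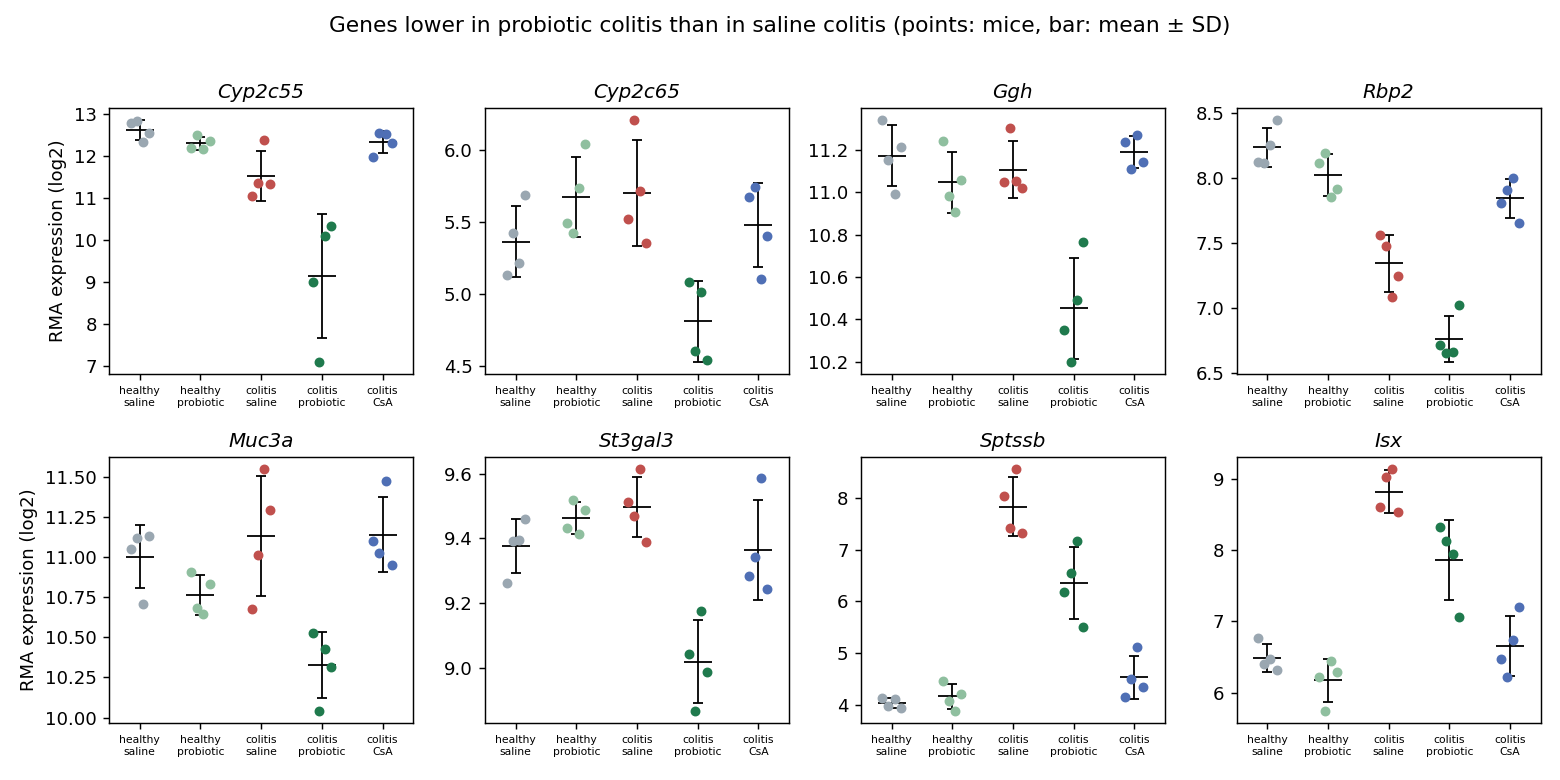
RMA expression (log2) of 8 genes that fell, by group, with a point for each mouse and a bar for the mean ± SD of 4 mice. Cyp2c55, Cyp2c65, Ggh, Rbp2, Muc3a and St3gal3 are lowest in probiotic colitis, while Sptssb and Isx are highest in saline colitis and lower in the other groups.

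In the same ranking of called genes without overlap, the largest fall was that of Cyp2c55. This cytochrome P450 of colon epithelium oxidises fatty acids such as arachidonic acid. It had values of 11.04, 11.34, 12.38 and 11.33 in saline colitis and 8.99, 7.11, 10.10 and 10.34 in probiotic colitis. The groups did not overlap, and probiotic mouse 5 was lowest by almost 2 log2 units. The difference was -2.39 ± 0.46 (5.24-fold lower, adjusted p = 0.0116 in limma), which passed without any 1 mouse (up to 0.0386). Healthy mice had means of 12.61 ± 0.23 on saline and 12.29 ± 0.15 on the probiotic, and CsA colitis had 12.33 ± 0.26, so the probiotic colitis mean of 9.13 ± 1.47 was the lowest of the 5 groups. Its neighbour Cyp2c65 had values of 5.52, 6.21, 5.72 and 5.35 against 5.08, 4.60, 5.01 and 4.54 (-0.89 ± 0.19, adjusted p = 0.0212), all probiotic values lying under the filter level. It failed without saline mouse 6 or probiotic mouse 5 (up to 0.093). These were the 2 falls among 24 genes of oxidation, with 0 rises and a median of -0.03, so the other genes of that list were not called. Of 30 genes of conjugation and drug export 2 fell, the efflux pump Abcb1a (-0.82 ± 0.19) and Gstk1 (-0.33 ± 0.08), and 0 rose, with a median of -0.15. Both failed without saline mouse 6 or 7 or probiotic mouse 3, 5 or 7 (up to 0.154).

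Sptssb and Isx had another pattern, with high levels in saline colitis. Sptssb encodes a small subunit of serine palmitoyltransferase, which starts sphingolipid synthesis. Its values were 8.04, 7.43, 8.55 and 7.31 against 6.19, 6.55, 7.16 and 5.50, without overlap, a difference of -1.48 ± 0.29 (2.79-fold lower, adjusted p = 0.0127 in limma). The means of the healthy groups were 4.03 ± 0.09 and 4.16 ± 0.24 and that of CsA colitis 4.53 ± 0.41, all under the filter level, so that probiotic colitis (6.35 ± 0.69) lay between them and saline colitis (7.83 ± 0.58). Sptssb passed without any 1 mouse (up to 0.0417). It was the only 1 of 29 sphingolipid genes that fell, with 0 rises and a median of -0.01. Isx, an intestinal homeobox factor that represses carotenoid uptake, had values of 8.60, 9.02, 9.13 and 8.53 against 8.32, 8.12, 7.94 and 7.06. It fell by 0.96 on the log2 scale (standard error 0.24, adjusted p = 0.0391), with group means of 6.49 and 6.18 in healthy mice and 6.66 in CsA colitis. The call was lost without saline mouse 6, 7 or 10 or probiotic mouse 5 or 7 (up to 0.144).

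Of 21 colonocyte markers 20 had a lower mean, 4 fell and 0 rose, with a median of -0.40. Fxyd4, a regulator of ion pumping, fell by 1.31 (standard error 0.29), Slc26a2, a sulphate transporter, by 0.71 (0.16), Car1, a carbonic anhydrase, by 0.48 (0.12) and Guca2b, the hormone uroguanylin, by 0.41 (0.10), with adjusted p of 0.0248, 0.0244, 0.0391 and 0.0317 in limma. Fxyd4 had values of 8.87, 7.74, 7.41 and 6.70 against 6.43, 5.86, 6.47 and 6.73, so that saline mouse 10 lay within the probiotic group. Aqp8, a water channel of the colon surface, had values of 8.58, 9.30, 9.13 and 8.71 against 8.19, 7.67, 8.11 and 8.89 (-0.71 ± 0.20, adjusted p = 0.0559). Each of the 4 calls was lost without probiotic mouse 3, 5 or 7 (up to 0.129), and 8 markers fell without saline mouse 5 or probiotic mouse 8. The mean of the colonocyte markers was 10.20, 10.40, 10.47 and 10.46 in saline colitis and 9.92, 9.67, 9.90 and 10.18 in probiotic colitis, without overlap of the groups. It was 10.96 and 10.85 in the healthy groups and 10.65 in CsA colitis. The immune lists moved the other way in the same arrays, and whether the 2 depend on each other was not tested.

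A few genes of fat and retinoid absorption and of the brush border surface fell. Rbp2, the cellular retinol binding protein of enterocytes, had values of 7.56, 7.48, 7.09 and 7.25 against 6.72, 6.66, 6.66 and 7.03 (-0.58 ± 0.12, adjusted p = 0.0149 in limma). Fabp2, the intestinal fatty acid binding protein, had 7.28, 7.54, 7.48 and 7.73 against 6.95, 6.31, 6.61 and 7.09 (-0.77 ± 0.19, adjusted p = 0.0391). The groups did not overlap for either gene. Rbp2 failed without saline mouse 6 or probiotic mouse 5 or 7 (up to 0.0693), and Fabp2 without saline mouse 6, 7 or 10 or probiotic mouse 3, 5 or 7 (up to 0.147). With Isx they were the 3 falls among 18 genes of this kind, a list written after the values were seen, with 0 rises and a median of -0.03. Muc3a, a membrane mucin of the brush border, had values of 10.67, 11.01, 11.54 and 11.29 against 10.52, 10.04, 10.43 and 10.32 (-0.80 ± 0.16, adjusted p = 0.0124) and failed without probiotic mouse 5 (0.0643). It was the 1 of 5 surface mucins that fell.

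A minority of the enzymes of O-glycan and sialic acid synthesis fell. St3gal3, a sialyltransferase, had values of 9.51, 9.47, 9.61 and 9.39 against 9.04, 8.87, 9.18 and 8.99. The groups were far apart for their spread, and the difference of -0.48 ± 0.08 (1.39-fold lower, adjusted p = 0.00535 in limma) passed without any 1 mouse (up to 0.0315). Gne, which opens the sialic acid pathway, differed by -0.34 ± 0.09, the CMP-sialic acid transporter Slc35a1 by -0.45 ± 0.10 and the galactosyltransferase B4galt4 by -0.42 ± 0.10. C1galt1, which builds the core 1 O-glycan, and its chaperone C1galt1c1 differed by -0.29 ± 0.08 and -0.34 ± 0.08. Those 5 failed without saline mouse 6 or 10 or probiotic mouse 3, 5 or 7 (adjusted p up to 0.178). Of 27 genes of this list, written after the values were seen, 6 fell and 0 rose, with a median of -0.21. The count was 1 without any of those 5 mice and 13 without saline mouse 5. Of 17 goblet cell markers 0 passed, with a median of -0.23, and 6 passed as lower without saline mouse 5. Muc2 (-0.10 ± 0.07, adjusted p = 0.501) and the trefoil peptide Tff3 (-0.23 ± 0.09, adjusted p = 0.192) were not called.

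Other falls were those of single genes. Ggh, which trims the glutamate tail of folates, had values of 11.05, 11.31, 11.05 and 11.02 against 10.35, 10.20, 10.49 and 10.76 (-0.65 ± 0.11, adjusted p = 0.00515 in limma). Arl14, a small GTPase of vesicles, had 8.78, 8.46, 8.74 and 8.33 against 7.83, 7.92, 7.99 and 7.80 (-0.69 ± 0.13, adjusted p = 0.0114), without overlap like Ggh. Mettl7b, a methyltransferase, and Mboat2, which acylates lysophospholipids, both fell by 0.60, with standard errors of 0.11. These 4 passed without any 1 mouse (up to 0.0465). Hsd3b3, a steroid dehydrogenase, fell by 1.03 (standard error 0.27), Ckmt2, a mitochondrial creatine kinase, by 0.64 (0.13), and Egf by 0.59 (0.14). Of these 3, Ckmt2 had a probiotic mean of 5.17, under the filter level, and all failed without saline mouse 6 or probiotic mouse 5 (up to 0.177). Of 16 enteroendocrine and tuft cell genes Pyy (-0.56 ± 0.12) and Cck (-0.31 ± 0.08) fell and 0 rose, with a median of -0.09. The hormone gene Ppy fell by 0.58 (standard error 0.13) as well, and all 3 hormones failed without saline mouse 6 or probiotic mouse 3 or 5 (up to 0.155).

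Barrier and renewal genes and most housekeeping genes had no calls. Of 23 genes of tight junctions and adhesion 0 passed, with a median of -0.07, among them Tjp1 (-0.01 ± 0.07, adjusted p = 0.949), Ocln (-0.13 ± 0.13, adjusted p = 0.64), Cldn2 (0.04 ± 0.10, adjusted p = 0.871) and Cldn8 (-0.13 ± 0.15, adjusted p = 0.716), in limma. Among these 4, the widest standard error was 0.15. None of 13 stem cell and Wnt genes (median -0.07), 20 cell cycle genes (median 0.13) or 16 epithelial antimicrobial genes (median -0.02) passed. Lgr5, the marker of crypt stem cells, differed by 0.34 ± 0.20 (adjusted p = 0.399) and the proliferation marker Mki67 by 0.11 ± 0.23 (adjusted p = 0.851). Of 83 respiratory chain subunits 0 passed, though 69 had a lower mean, and the median was -0.09. Without probiotic mouse 8, 7 of these subunits passed as lower. Of 24 genes of fatty acid oxidation 0 passed, 21 having a lower mean, with a median of -0.17. Ribosomal proteins (0 of 49), reference genes (0 of 11) and clock genes (0 of 15) had medians of -0.06, 0.02 and -0.08. Of 38 proteasome subunits 1 rose and 0 fell, with a median of 0.01, and 0 rose without saline mouse 6.

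**Figure D5:**
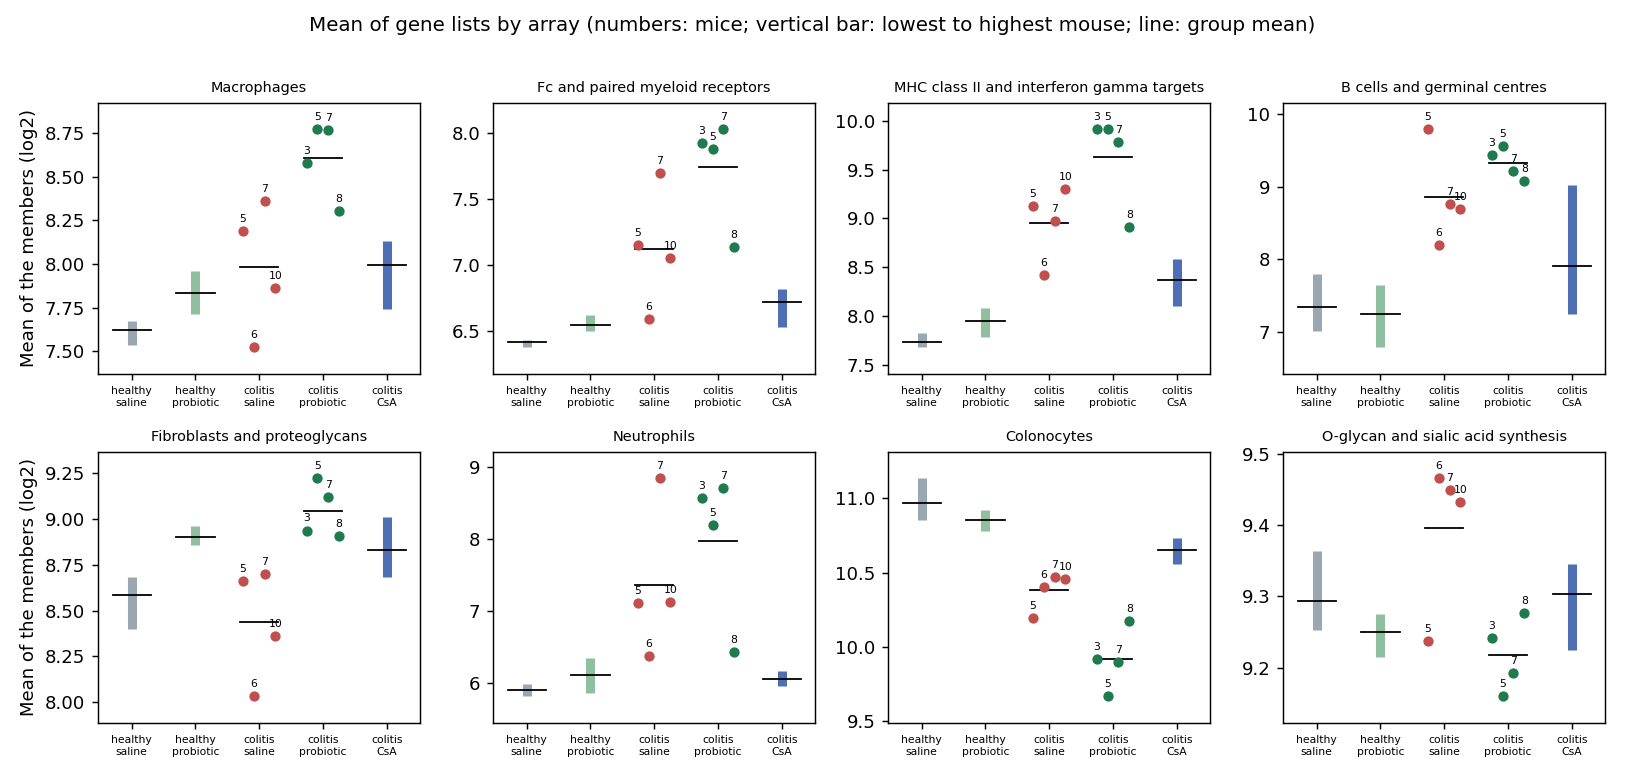
Mean of the tested members of 8 gene lists (log2) on each colitis array, with mouse numbers, and the range and mean of the healthy and CsA groups. Of the 8 arrays, saline mouse 6 is lowest in the immune and fibroblast lists drawn, probiotic mouse 8 is lowest of its group in the myeloid, MHC class II and neutrophil lists and highest of it among colonocyte genes, and saline mouse 5 is highest for B cell genes.

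In healthy mice the same probiotic mixture gave 0 called genes with limma in the fit of all arrays. In that fit 1511 genes had an unadjusted p under 0.05 and the lowest adjusted p was 0.206. Fitted alone, the healthy groups gave 19 rises and 0 falls, whereas the colitis groups fitted alone gave 0 rises and 0 falls. Which comparison had more calls thus depended on the arrays that supplied the spread. Of the genes above, Clec7a differed in healthy mice by 0.36 ± 0.29, C1qb by 0.39 ± 0.22, Cd28 by 0.09 ± 0.14, Bmp4 by 0.63 ± 0.19 and Cyp2c55 by -0.32 ± 0.46. The median of the macrophage markers was 0.23 and that of the fibroblast genes 0.32, against 0.71 and 0.59 in colitis. Whether the probiotic difference in colitis differs from that in healthy mice was tested as an interaction, which called 0 genes (1446 at an unadjusted p under 0.05, smallest adjusted p 0.185). The smallest p belonged to Prdm1, with an interaction of 1.05 ± 0.18, and Aif1, with 0.97 ± 0.17 (adjusted p = 0.185 for both), followed by P2rx7 with 0.58 ± 0.11 (adjusted p = 0.193). A difference of the effects in colitis and health was therefore not shown for any gene. Without probiotic mouse 8 the interaction called 30 genes upwards and 15 downwards with limma.

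Against CsA, the other treatment given in colitis, 2006 genes were higher in probiotic colitis (12.0% of those tested) and 1884 lower (11.3%). This comparison shares the 4 probiotic arrays with that against saline. Without probiotic mouse 7, 1218 genes were lower, and without probiotic mouse 5, 1247. By the same ranking of called genes without overlap, the largest rises relative to CsA were in neutrophil and injury genes. Retnlg, a neutrophil resistin-like gene, was higher by 4.24 ± 1.02 (adjusted p = 0.0053 in limma), Plet1, a gene of epithelium in repair, by 4.04 ± 0.35 (adjusted p = 2.88e-06), Saa3 by 3.98 ± 0.97 (adjusted p = 0.0057), Il1b by 3.72 ± 0.71 (adjusted p = 0.00111) and Clec4e by 3.55 ± 0.86 (adjusted p = 0.00565). All 5 showed no overlap with CsA, which their choice required, and none of them passed against saline colitis (adjusted p of 0.388 to 0.765). Cyp2c69 (-3.68 ± 0.51), Cyp2c55 (-3.20 ± 0.46), the mucosal pentraxin Mptx1 (-2.88 ± 0.52), the magnesium channel Trpm6 (-2.26 ± 0.25) and Slc37a2 (-2.18 ± 0.33) were the lowest relative to CsA in that ranking.

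The gene groups split in their level relative to CsA. Clec7a was higher than under CsA by 2.15 ± 0.29 (adjusted p = 8.3e-05 in limma), Clec12a by 1.85 ± 0.22 (adjusted p = 4.03e-05) and C1qb by 1.18 ± 0.22 (adjusted p = 0.00107), each without overlap. In the list of Fc and paired receptors 24 of 31 were higher, and so were all 18 class II and interferon gamma genes and 15 of 17 neutrophil markers. C1qtnf3 (-0.13 ± 0.19), Bmp4 (-0.12 ± 0.19) and Dpt (0.09 ± 0.15) did not differ beyond their error between the 2 treatments (adjusted p of 0.687, 0.716 and 0.73). Of 26 fibroblast genes 7 were higher and 1 lower than under CsA, with a median of 0.22. Over all genes tested 12.0% were higher and 11.3% lower, with a median of -0.01, so the fibroblast list as a whole leaned higher. Sptssb (1.83 ± 0.29) and Isx (1.20 ± 0.24) were higher than under CsA, while 13 of 21 colonocyte markers were lower and 0 higher.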

How the data were processed

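RNA from the middle colon of 20 mice was hybridised to Affymetrix arrays, 1 per mouse, in 5 groups of 4. The deposited values are log2 expression after RMA, per the submitters' processing notes, and those notes name no version or build. Of 41801 probe sets, 12606 held no value here. Of the 29195 others, 22360 had 1 gene symbol in the platform annotation, 1013 had several and 5822 had none, and a gene was represented by its brightest probe set. Genes above a log2 value of 5.30 (the 25th percentile) on at least 4 arrays were tested, 16739 of 21423, and 16660 matched RefSeq GRCm38.p6 by identifier.

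Group means were fitted over all 20 arrays with limma 3.58.1 in R 4.3.3, and Benjamini-Hochberg adjusted p-values under 0.05 were called. The p-values set a difference against the spread between mice within groups, pooled over all 5 groups, and not against that of the 8 compared mice alone. The fit was run on simulated data with independent noise and the same spread of a gene in every group, so that run does not cover groups of unequal spread. The alternatives were other filters, normalizations, moderation, array weights, probe set means, a block by mouse number, fewer groups and leaving out each mouse.

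The members and gene lists were chosen with earlier results of these data known, and 6 of the 55 lists and the fit without saline mouse 6 and probiotic mouse 8 were added after the values were seen. Named genes were the 15 largest rises and falls without overlap, up to 5 members of a list with the smallest p, a set of fixed genes, and the 5 largest changes against CsA. Predicted genes, noncoding RNA and receptor segments were left out of the largest changes. The few others named, among them Fasl, complete a list's calls.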

Additional observations from a re-analysis of the deposited data

Results flagged for a closer look

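Of 284 groups of 4 values for the genes named, 27 held a mouse far from the other 3 of its group by Dixon's test, which chance gives in about 1 of 20 groups. Of these, 19 were probiotic mouse 8, 7 saline mouse 6 and 1 probiotic mouse 5.

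Probiotic mouse 8 was far below its group for Clec7a (8.606), Clec4a3 (7.484), Sirpa (8.539), Cxcl16 (9.134), Aif1 (7.262), Cd68 (9.192) and Lyz2 (10.815), genes of macrophages and their receptors. It was also far below for Serping1 (10.761), Ctsh (9.54), Cybb (9.828), H2-Ab1 (11.953), Cd274 (8.6), Csf3r (7.158) and Nos2 (8.529). It was far above its group for the epithelial genes Il18 (10.814), Ocln (10.628), Rbp2 (7.029), Pyy (10.498) and Slc26a2 (10.824).

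Saline mouse 6 was far below its group for H2-Ab1 (10.923), Il10ra (6.645) and Prox1 (5.977), and far above it for Ggh (11.306), Ckmt2 (6.18), Egf (6.591) and Ppy (8.485). Probiotic mouse 5 was far above its group for Cldn5 (6.539).

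Among probe sets without a single gene symbol, which entered no count above, 7 rose and 3 fell in probiotic colitis.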

How the results depend on the processing

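The counts of genes against saline colitis changed with the arrays in the fit and with their weights. Array weights gave 1063 rises and 619 falls, the 8 arrays alone 0 and 0, no filter 70 falls and a second quantile normalization 184 falls. Leaving out 1 mouse gave 60 to 829 rises and 11 to 394 falls. Mouse numbers 5 and 7 occur in both groups, with correlations of deviations of 0.248 and 0.433, and nothing says that they mark the same source, so no pairing was assumed. With the replicate block there were 154 rises and 65 falls, 1130 higher and 970 lower genes against CsA, and 1 interaction downwards. The healthy groups alone gave 19 rises in healthy mice. The interaction gave 5 genes upwards with array weights, and 0 to 30 upwards and 0 to 15 downwards without 1 mouse. Genes lower than under CsA numbered 1218 to 2302 without 1 mouse. Of the results for single genes under an alternative, 1880 kept direction and side of the threshold, 624 were no longer called, 27 became called and 9 reversed. None of the 9 belonged to a called gene. They were Cd8a, Tlr4, Tjp1, Cldn2 and Mki67. Without 1 mouse, Cd8a ranged from -0.0433 (without saline mouse 6) to 0.5503, Tlr4 from -0.0172 (without saline mouse 5) to 0.1285, Tjp1 from -0.0552 to 0.0208 (without probiotic mouse 5) and Cldn2 from -0.0267 (without probiotic mouse 8) to 0.0927. With the block, Mki67 was -0.0475 and Cldn2 -0.0963. The cause was not tested. Genes with a group mean under the filter level have imprecise folds.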
